A study of Homo sapiens with 6 samples.

Results

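The genes of 9 proteins that act after the glycosylase in base excision repair were examined for acetylated NEIL1 (AcNEIL1) on chromatin: APEX1, POLB, LIG3, LIG1, XRCC1, PARP1, FEN1, PCNA and POLD1. They were taken by name from the RefSeq gene table, 9 of 19821 protein-coding genes, and each was read over its gene body and 20 kb on either side (the extended gene body). The cells were HCT116, an established human colorectal carcinoma line, with no treatment named, harvested during exponential growth from several dishes per experiment. Binding was read by ChIP-seq, the sequencing of DNA pulled down with chromatin by an antibody. There were 3 ChIP libraries with a custom rabbit antibody to AcNEIL1, replicates 1 to 3, and 3 input libraries of chromatin taken before immunoprecipitation. Binding at the genes was read from the peak list of each ChIP library, made by the authors against the input of the same number. No second genotype, treatment or cell line was present, so no test between conditions could be made, and values are set against the spread of the 3 replicates and against all protein-coding genes. Separate cultures are not named for the replicates in the labels, so that spread may be technical.

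NEIL1 is a DNA glycosylase that cuts out oxidised bases and nicks the strand. The gap is then finished by downstream enzymes: APEX1 and end-processing enzymes clean the ends, POLB fills a single nucleotide, and LIG3 with its scaffold XRCC1 seals the nick, while PARP1 senses the break. In the long-patch route, PCNA clamps POLD1 to the DNA for strand-displacing synthesis, FEN1 removes the flap and LIG1 seals. These proteins are known to bind NEIL1 or to work with it, which is background here: the peak lists report where AcNEIL1 lay on the genome, not which proteins it met.

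Few AcNEIL1 peaks were called in the bodies of these genes or within 1 kb of their ends. No member had a peak in its gene body in 2 or more replicates, where 28.3% of all protein-coding genes did. By the approximate upper limit of 3 in 9, a count of 0 of 9 allows a share of up to 33.3%. This number of genes therefore cannot set the members apart. In any replicate, 2 of 9 had a body peak (39.1% of all genes). The same was true of the gene ends, read as 1 kb on either side of both ends: 0 of 9 members had an end peak in at least 2 replicates (15.2% of all genes) and 1 of 9 in any replicate (25.5%). The body and end peaks were 3 in all, at XRCC1 and POLD1, and each came from replicate 2, the library with the longest list (60075 peaks on chromosomes 1 to 22 and X, against 39789 and 49609 in replicates 1 and 3). None of the 3 peaks ranked by q-value among the 39789 strongest of replicate 2, the size of the shortest list.

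The neighbourhoods of the genes were read in the same way. Within the extended gene body, 6 of 9 members had a peak in at least 2 replicates (51.6% of all genes) and the same 6 in any replicate (63.3%), and 3 of 9, APEX1, XRCC1 and POLD1, had one in all 3 (41.1%). These shares lie near those of all genes. Without replicate 2, 3 members (APEX1, XRCC1 and POLD1) had a peak in both other lists, against 43.2% of all genes. With flanks of 10 kb the count was 3 (44.5% of all genes), and with peaks of −log10 q of 5 or more it was 2, XRCC1 and POLD1 (33.0%). End windows of 2000 bp took in peaks just outside XRCC1, POLD1 and LIG1, so that 3 of 9 members then had an end peak in at least 2 replicates, against 21.4% of all genes.

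**Figure D1:**
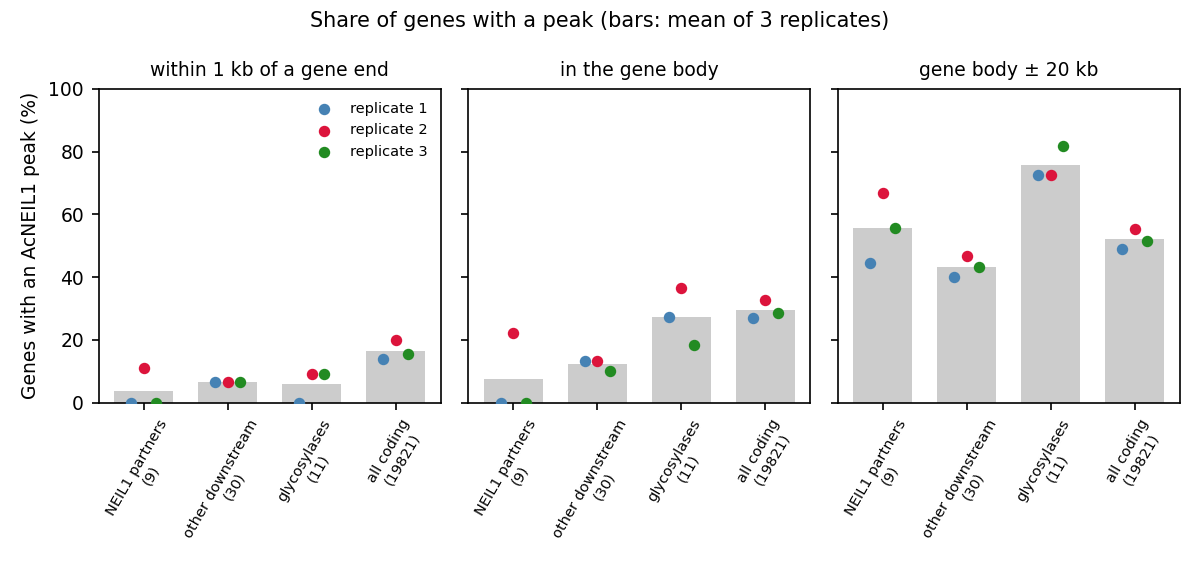
Share of genes with an AcNEIL1 peak within 1 kb of a gene end, in the gene body, and in the gene body with 20 kb on either side, for the 9 members, 30 other downstream repair genes, 11 DNA glycosylase genes and all protein-coding genes. Points are the 3 replicates and bars their mean; members fall at 0% for ends and bodies in replicates 1 and 3, and between 44.4% and 66.7% in the widest window.

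Over the 9 extended gene bodies there were 15, 26 and 20 peaks in replicates 1, 2 and 3. Their strength was that of an ordinary peak. Median pileup, the number of extended tags stacked at the summit, was 20.0, 21.0 and 18.1 at the members and 20.0, 21.0 and 19.1 over each whole list. Median fold, the authors' ratio of pileup to local background, was 3.26, 3.42 and 3.83, against 3.42, 3.40 and 3.61. POLD1 and XRCC1 held 44 of the 61 peaks (72.1%), and 58 of the 61 lay in flanks.

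Gene bodies were also set against their surroundings. The 9 bodies add up to 250 kb and held 0, 2 and 0 peak summits. At the density of the rest of the 1 Mb around each gene, they would have held 10.2, 15.5 and 13.0. Over all protein-coding genes the summits in bodies, 24186, 37053 and 30188, were close to the number that surrounding density would give, 23450, 35352 and 29581. A gene whose extended gene body fills the 1 Mb added nothing to the latter number, though its summits were counted, so that number is too low. Neither total was matched to the members for gene length. Whether the members differ from other genes in summits per gene body was not tested.

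**Figure D2:**
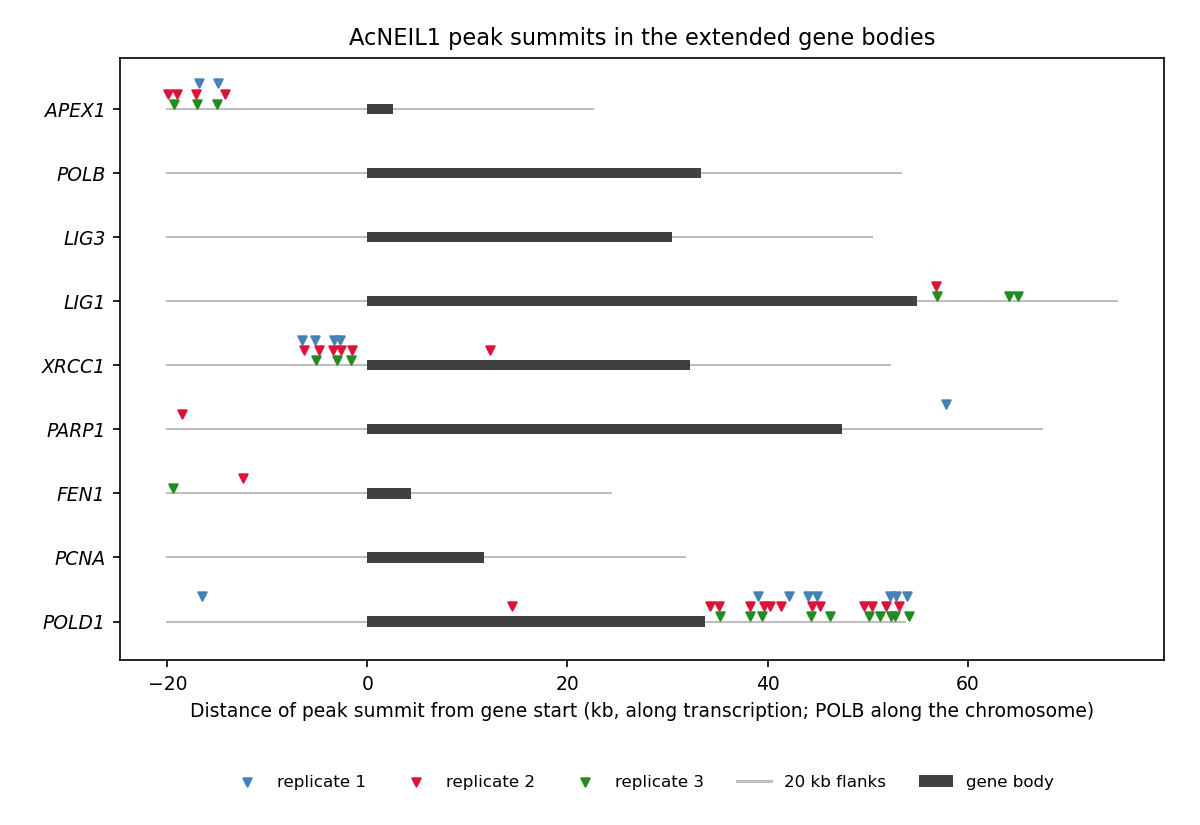
Peak summits along each of the 9 genes, with distance from the gene start in kb on the horizontal axis, the gene body as a dark bar, the 20 kb flanks as a thin line and 1 row of triangles per replicate. Bodies hold 2 summits, both of replicate 2, while clusters lie upstream of XRCC1, downstream of POLD1 and far upstream of APEX1.

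APEX1, the AP endonuclease gene (gene ID 328, chr14:20455226-20457767 in GRCh38, 2.54 kb, plus strand), had no peak at its ends or in its body. Its upstream flank held 2, 4 and 3 peaks in replicates 1, 2 and 3, and its downstream flank none. The nearest lay 14.7, 13.9 and 15.0 kb upstream, with pileup 17.0, 16.0 and 17.2 and fold 3.69, 3.48 and 3.03. The distance was thus nearly the same in the 3 libraries, 14.5 ± 0.569 kb (SD, n = 3), although the peak of replicate 2 did not overlap those of the other two. The one region seen in all 3 replicates (chr14:20437865-20438698) had fold 2.82, 3.07 and 3.84, a mean of 3.24 ± 0.532 (SD, n = 3). It touched the pseudogene LOC100422510 through the peak of replicate 1 only. The other 2 regions of more than 1 library were seen in 2 replicates each, 1 of them at the end of KLHL33, a gene of the kelch-like family.

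POLB, the gap-filling polymerase gene (gene ID 5423, chr8:42338494-42371808, 33.3 kb), had no peak in its extended gene body in any replicate. The nearest peak was 119, 127 and 127 kb away in replicates 1, 2 and 3, with pileup 16.0, 20.0 and 16.2 and fold 2.90, 4.17 and 4.20. It was the member farthest from AcNEIL1 by the mean over replicates, 124 ± 4.62 kb (SD, n = 3). Distances as long were nevertheless common: 30.3%, 25.6% and 28.7% of protein-coding genes lay at least as far from a peak in the same replicate.

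LIG3, the ligase gene of the short-patch route (gene ID 3980, chr17:34980512-35010872, 30.4 kb, plus strand), was also without a peak in its extended gene body. The nearest peak was downstream in every replicate, at 79.6, 102 and 51.2 kb, with pileup 14.0, 13.0 and 15.3. These peaks lay at 3 different places, with pileup below the median of each list and fold 3.46, 3.38 and 3.97. The rest of the 1 Mb around LIG3 held 0.430, 1.61 and 0.645 peaks per 100 kb.

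XRCC1, the gene of the scaffold that holds LIG3 (gene ID 7515, chr19:43543311-43575527, 32.2 kb, minus strand), was the member with a group of peaks just upstream of its start. The extended gene body held 4, 6 and 3 peaks in replicates 1, 2 and 3, and all but 1 of them lay upstream, within 7 kb of the start. The peak nearest to the start was 2396, 1085 and 1187 bp from it. These peaks lay in PINLYP, a gene of a phospholipase inhibitor-like protein that runs the other way and overlaps the first 19 bp of XRCC1. Within PINLYP there were 4, 5 and 3 peaks, with pileup of 20.0 to 25.0, 20.0 to 29.0 and 16.2 to 22.9.

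In this group 2 regions were seen in all 3 replicates. Another, the closest to the start, was seen in replicates 2 and 3 with fold 3.99 and 4.19. Where a library had several peaks in a region, the highest is given. The nearer of the shared regions (chr19:43577923-43579634) had fold 5.04, 4.82 and 4.59, a mean of 4.82 ± 0.225 (SD, n = 3), and only 3.21%, 6.66% and 11.0% of the peaks in the same lists had a fold as high. The farther (chr19:43579763-43581368) had fold 4.22, 4.22 and 3.98, a mean of 4.14 ± 0.139 (SD, n = 3). Replicate 2 also had a lower peak in the nearer region (chr19:43578921-43579634), with fold 2.45. The single body peak, in replicate 2, lay 12.3 kb inside the gene with pileup 15.0 and fold 2.87, and 81.3% of that list had a fold at least as high. The 250 bases before the XRCC1 start are printed because the group lies upstream of them and they also lie inside PINLYP. None of these bases was in a peak, and capitals mark the only match to the GC box GGGCGG, here on the opposite strand. The sequence is that of RefSeq, 5′ to 3′ on the minus strand.
XRCC1 start, chr19:43575528-43575777: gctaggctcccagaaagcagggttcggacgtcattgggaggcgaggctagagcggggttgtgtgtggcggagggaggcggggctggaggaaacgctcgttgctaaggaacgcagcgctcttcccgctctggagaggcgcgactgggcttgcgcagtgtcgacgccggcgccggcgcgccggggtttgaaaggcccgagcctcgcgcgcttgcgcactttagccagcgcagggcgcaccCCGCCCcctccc

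PARP1, the gene of the break sensor that makes poly(ADP-ribose) (gene ID 142, chr1:226360691-226408093, 47.4 kb, minus strand), had 1, 1 and 0 peaks in its extended gene body. The peak of replicate 1 lay 10.2 kb downstream (pileup 14.0, fold 3.53). That of replicate 2 lay 18.2 kb upstream (pileup 21.0, fold 3.45), on the other side of the gene, and in replicate 3 the nearest was 151 kb away (pileup 16.2, fold 2.87). No place near PARP1 was therefore marked by more than 1 library, and its count of 2 replicates in the extended gene body comes from 2 peaks that do not overlap. Around it, the rest of the 1 Mb held 4.38, 6.14 and 6.47 peaks per 100 kb.

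FEN1, the flap endonuclease gene of the long-patch route (gene ID 2237, chr11:61792911-61797238, 4.33 kb, plus strand), had 0, 1 and 1 peaks in its extended gene body. The nearest lay upstream in each replicate, at 20.7, 12.1 and 19.2 kb, with pileup 18.0, 22.0 and 17.2 and fold 2.86, 3.42 and 2.78. The peaks of replicates 2 and 3 were at different places in MYRF, a myelin regulatory factor gene. The surroundings of FEN1 were the densest in peaks of the 9 genes: 13.2, 16.7 and 15.3 per 100 kb, against 0, 2.26 and 2.26 in its own extended gene body.

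PCNA, the sliding clamp gene (gene ID 5111, chr20:5114953-5126622, 11.7 kb, minus strand), had no peak in its extended gene body. The nearest was 33.5 kb downstream in replicate 1 (pileup 14.0, fold 3.60). In replicates 2 and 3 it was 39.9 and 47.1 kb upstream (pileup 15.0 and 15.3, fold 3.87 and 3.97). None of these 3 nearest peaks overlapped another.

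LIG1, the ligase gene of the long-patch route and of replication (gene ID 3978, chr19:48115445-48170344, 54.9 kb, minus strand), is the longest member and had no body peak. Its extended gene body held 0, 1 and 3 peaks, all beyond its 3′ end. One region centred 1.97 kb from that end (chr19:48113194-48113766) was seen in replicates 2 and 3, with pileup 20.0 and 16.2 and fold 2.24 and 3.78. In replicate 2 that fold was among the lowest, since 98.6% of the list had one at least as high, and replicate 1 had no peak closer than 47.6 kb. The other 2 peaks of replicate 3 lay in PLA2G4C, a phospholipase gene.

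POLD1, the catalytic subunit of DNA polymerase delta (gene ID 5424, chr19:50384323-50418018, 33.7 kb, plus strand), had the most peaks: 8, 13 and 10 in its extended gene body in replicates 1, 2 and 3. They belonged chiefly to its downstream neighbours. SPIB, an ETS transcription factor gene of B cells that begins 920 bp after POLD1 ends, held 4, 7 and 5 of them. MYBPC2, a myosin-binding protein gene of fast skeletal muscle, held 3, 4 and 5. Upstream of POLD1 there was 1 peak, in replicate 1, and the nearest peak to its start was 16.3, 14.4 and 24.7 kb away.

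There were 4 regions downstream of POLD1, joined from overlapping peaks, that held a peak of each of the 3 replicates. The strongest by mean fold (chr19:50427659-50430531, within SPIB, centred 11.1 kb from the POLD1 end) had pileup 17.0, 31.0 and 25.8 and fold 3.02, 5.76 and 4.46, a mean of 4.41 ± 1.37 (SD, n = 3). Replicate 1 was the weak library here: 76.4% of its peaks had a fold as high, against 1.85% and 13.1% in replicates 2 and 3. At the region in MYBPC2 at chr19:50435143-50436700, fold was also lowest in replicate 1 (2.67, 4.69 and 4.89). Pileup there was not, at 25.0, 30.0 and 23.9. The other 2, at chr19:50422244-50423483 and chr19:50436764-50437857, had mean folds of 3.57 ± 0.630 and 2.97 ± 0.602 (SD, n = 3). In the first of these the peaks of replicates 1 and 3 did not overlap, nor in the second did those of replicates 2 and 3. Among regions of more than 1 library, the closest to POLD1 was centred 1.86 kb past its end (chr19:50419350-50420405), inside SPIB near its start. It was seen in replicates 2 and 3 with the highest pileup of the member peaks of those libraries, 32.0 and 30.5 tags.

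**Figure D3:**
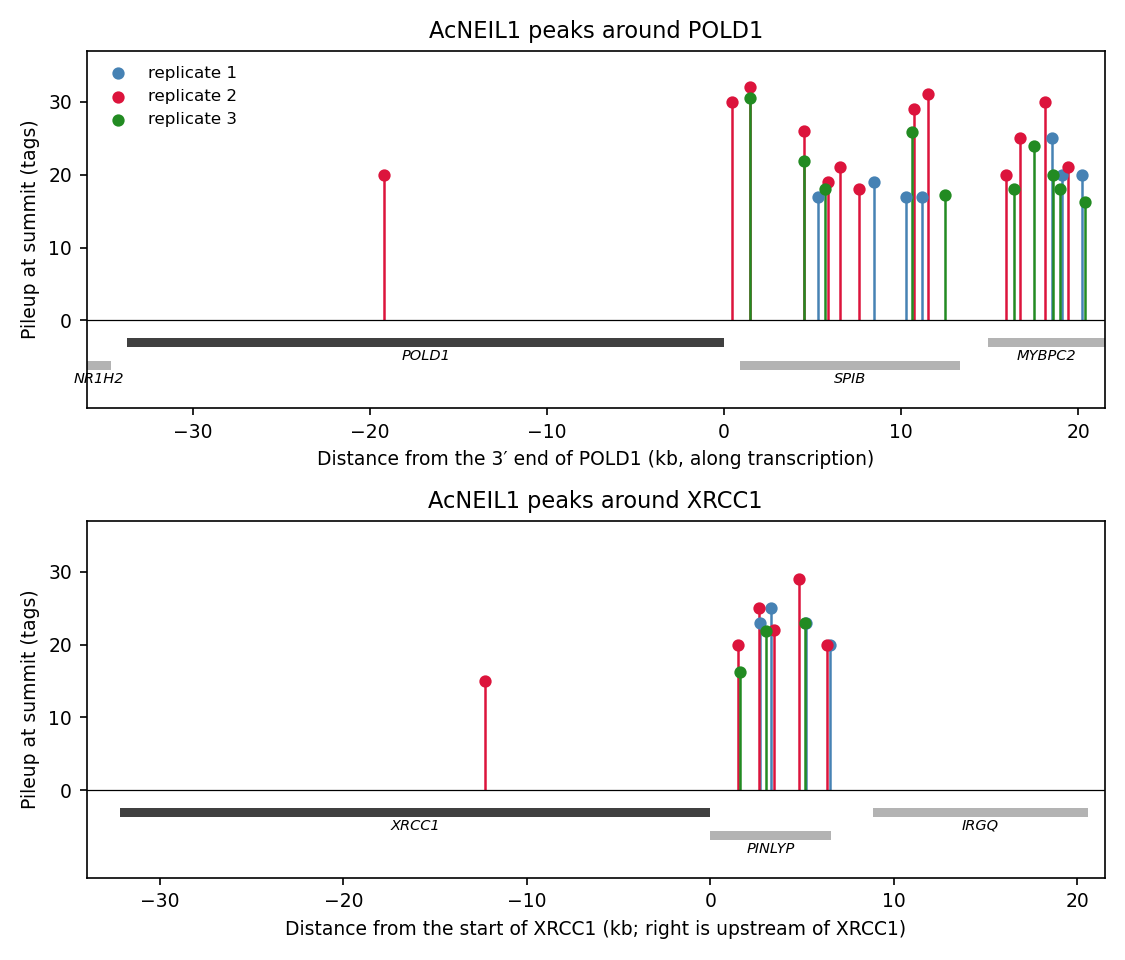
Pileup at the summit of each AcNEIL1 peak against distance from the 3′ end of POLD1 (top) and from the start of XRCC1 (bottom, right is upstream of XRCC1), both in kb; bars under the axis are gene bodies and colours are replicates. The tall groups stand over SPIB, MYBPC2 and PINLYP, and each member's own body holds 1 peak, of replicate 2.

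Within and at POLD1 there were 2 peaks, both in replicate 2. The peak at the 3′ end (chr19:50418245-50418602) had pileup 30.0 but fold 2.32. Its local background, recovered from those 2 values, was 12.3 tags, against a median of 5.34 in that list. It ended 336 bp before the SPIB start, so the window of 1 kb assigns it to both genes. The body peak (chr19:50398721-50399053, pileup 20.0, fold 2.96) lay over the second transcription start that RefSeq lists for POLD1, with its summit 56 bp from it. The 250 bases before each listed start are printed, in RefSeq sequence 5′ to 3′ on the plus strand, because this is the only listed start of any member with a peak within 1 kb. Capitals mark bases inside that peak, 131 of 250 before the second start and none before the first.
POLD1 first start, chr19:50384073-50384322: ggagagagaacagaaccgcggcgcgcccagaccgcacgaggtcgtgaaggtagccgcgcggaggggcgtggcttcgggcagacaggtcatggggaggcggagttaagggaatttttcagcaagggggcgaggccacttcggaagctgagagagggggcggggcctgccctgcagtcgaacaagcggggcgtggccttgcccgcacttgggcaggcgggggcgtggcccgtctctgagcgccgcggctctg
POLD1 second start, chr19:50398602-50398851: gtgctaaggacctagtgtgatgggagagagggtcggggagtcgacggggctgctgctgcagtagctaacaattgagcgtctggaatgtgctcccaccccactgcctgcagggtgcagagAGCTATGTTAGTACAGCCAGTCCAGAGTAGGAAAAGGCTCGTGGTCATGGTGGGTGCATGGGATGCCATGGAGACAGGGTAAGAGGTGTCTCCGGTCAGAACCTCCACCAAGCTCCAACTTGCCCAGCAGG
The first stretch belongs to a promoter entry with 71.0% G and C and 34 CpG, and the second to one with 61.0% and 10 CpG. In replicates 1 and 3 neither start had a peak within 1 kb.

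Ordered by mean distance from the gene body to the nearest peak, the members ran XRCC1 (1.20 ± 1.20 kb), POLD1 (2.18 ± 2.70), APEX1 (14.5 ± 0.569), LIG1 (17.0 ± 26.5) and FEN1 (17.3 ± 4.59; SD, n = 3 for each). Then came PCNA (40.2 ± 6.80), PARP1 (59.8 ± 79.1), LIG3 (77.6 ± 25.5) and POLB (124 ± 4.62 kb; SD, n = 3 for each). XRCC1 and POLD1 did not differ beyond their spread, nor did APEX1, LIG1 and FEN1, nor PARP1 and its neighbours PCNA and LIG3. XRCC1 and POLD1 lay nearer than APEX1 in every replicate, and POLB lay farther than LIG3 in every replicate. The median over the 9 genes was 20.7, 13.9 and 19.2 kb in replicates 1, 2 and 3, against 21.9, 11.6 and 17.7 kb over all protein-coding genes, a difference smaller than the spread between replicates.

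**Figure D4:**
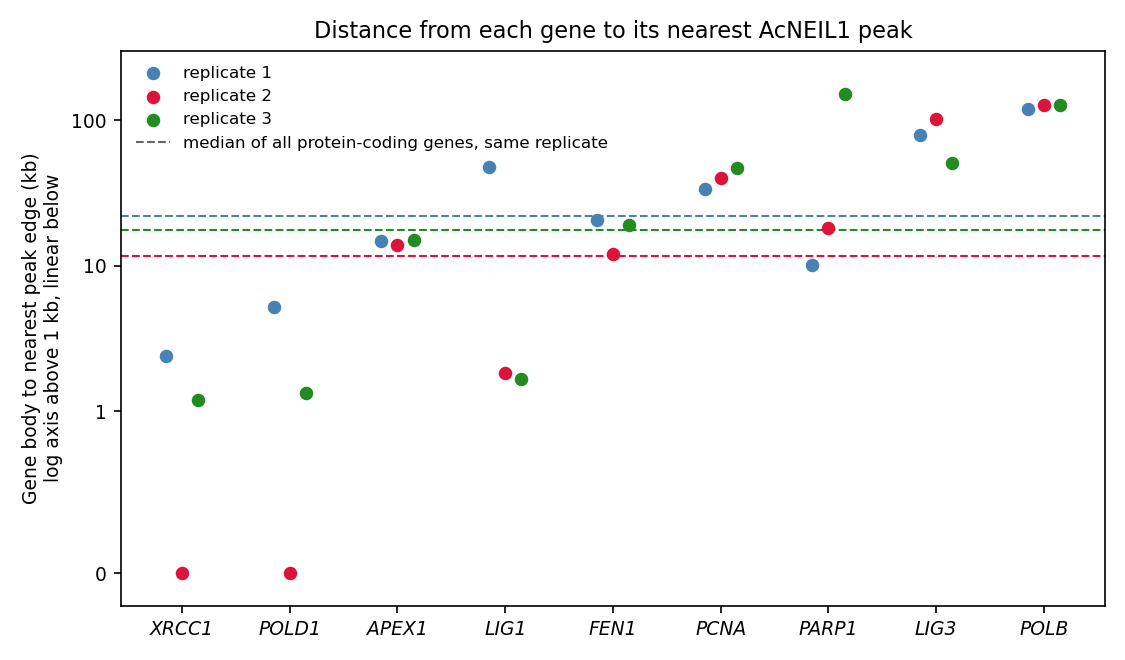
Distance from each gene body to the nearest AcNEIL1 peak edge in kb (log axis above 1 kb, linear below; 0 is a peak inside the gene), with 1 point per replicate and dashed lines at the median of all protein-coding genes. XRCC1 and POLD1 sit below the lines and PCNA, LIG3 and POLB above them in all 3 replicates, while APEX1, LIG1, FEN1 and PARP1 lie on different sides in different replicates.

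The density of peaks in the extended gene bodies was read pooled over the members and gene by gene. Pooled over the 9 genes it was 3.33 ± 0.901 peaks per 100 kb (SD, n = 3), and over all protein-coding genes 3.31 ± 0.650. By gene it ran from 0 at POLB, LIG3 and PCNA to 14.0 ± 3.37 at POLD1. At APEX1 it was 7.05 ± 2.35 against 0.871 ± 0.320 in the rest of the surrounding 1 Mb (SD, n = 3), higher in all 3 replicates. All APEX1 peaks lay in the upstream flank, at least 13.9 kb from the gene. At POLD1 it was 14.0 ± 3.37 against 9.69 ± 1.95, and at XRCC1 6.00 ± 2.12 against 4.42 ± 0.942 (SD, n = 3 for each). Both were higher in the extended gene body in all 3 replicates, with ranges over the replicates that overlap. Most of these peaks lay in the neighbours SPIB, MYBPC2 and PINLYP. FEN1 (1.51 ± 1.30 against 15.1 ± 1.76), LIG1 (1.40 ± 1.61 against 7.44 ± 1.83) and PARP1 (0.760 ± 0.658 against 5.66 ± 1.12) had the opposite order in every replicate (SD, n = 3 for each).

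**Figure D5:**
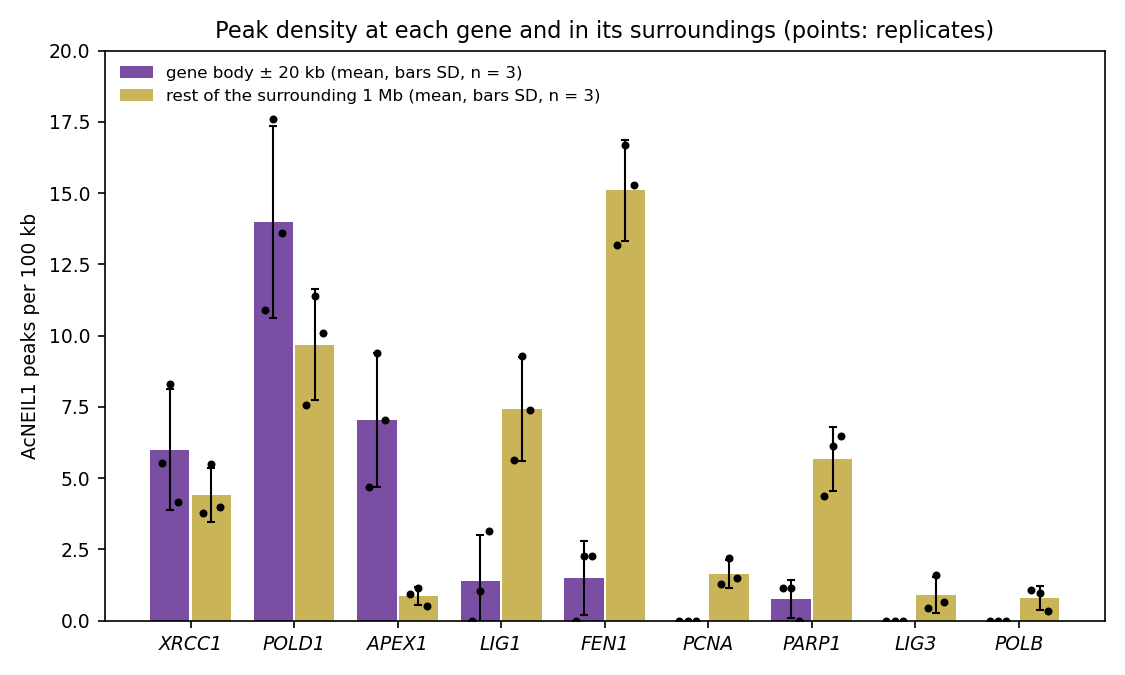
AcNEIL1 peaks per 100 kb in each gene body with 20 kb on either side (purple) and in the rest of the surrounding 1 Mb (yellow), as the mean of 3 replicates with SD and the replicates as points. The pair is reversed between APEX1 (7.05 and 0.871) and FEN1 (1.51 and 15.1).

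Other genes of the downstream steps were counted in the same way. Of 30 such genes (among them end processing enzymes, other polymerase subunits, the clamp loader and single-strand binding proteins), 3 (10.0%) had an end peak in at least 2 replicates, 3 (10.0%) had a body peak and 13 (43.3%) had a peak in the extended gene body. The shares of all protein-coding genes were 15.2%, 28.3% and 51.6%. The 3 with end peaks were HNRNPU, an RNA-binding protein gene, with fold 4.02 and 2.43 in replicates 1 and 3, PARP3, a poly(ADP-ribose) polymerase gene, with 3.06 and 4.27 in replicates 1 and 2, and POLD4, the small subunit of the polymerase of POLD1, with 3.92 and 3.63 in replicates 2 and 3. None of the 3 had an end peak in every library. The bodies of all 30 genes held 11, 8 and 7 summits where the surrounding density would give 30.1, 40.6 and 36.2. Of 11 DNA glycosylase genes, none had an end peak in at least 2 replicates, 3 (27.3%, near the 28.3% of all genes) had a body peak and 8 (72.7%) had a peak in the extended gene body. The genes with body peaks, named after their values were seen, were HNRNPU, PARP3 and HMGB1 among the downstream genes and OGG1, SMUG1 and NEIL1 among the glycosylases. The bodies of the glycosylase genes held 5, 7 and 2 summits, against 7.03, 10.0 and 8.74 at the surrounding density. No difference between these lists was tested.

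The sequence at the members' starts was also described. RefSeq entries of 300 bases, from 250 before to 50 after a start, were found for 8 of the 9 genes, 10 entries in all; POLB was not matched. Their share of G and C ran from 57.3% at APEX1 to 71.0% at POLD1, with a median of 66.8% against 62.3% over 22132 entries of coding genes. They held 10 to 34 CpG, with a median of 31.0 against 21.0. The entries of APEX1 and LIG3 (61.7%) and the second POLD1 start (61.0%) lay below the coding median for G and C. A peak within 1 kb of the start was found at 1 of the 10 in any replicate, the second POLD1 start, against 16.9% of the coding entries. Such a peak in at least 2 replicates was found at 3.11% of the coding entries with at most 53.0% G and C, which include none of the 10. It was found at 12.6% of those with 53.3% to 62.3% (3 of the 10), 11.5% of those with 62.7% to 70.0% (6 of the 10) and 8.42% of those with more (1 of the 10).

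Short motifs, 6 in number, were searched on both strands of the 10 entries, where matches may share bases. The GC box GGGCGG was present in 7 of 10 (56.3% of the 22132 coding entries, and 45.0% of all 34961 entries on the chromosomes analysed). The CCAAT box was present in 4 of 10 (34.6% of either), and the E-box CACGTG in 3 of 10, at APEX1, LIG3 and FEN1 (8.34% of coding and 7.27% of all entries). The TATA box letters TATAAA were in none (9.46% and 11.5%), nor was TTTGGCGC (0.818% and 0.655%) or TTTCGCGC (0.714% and 0.518%), both forms of the E2F site. These are matches of letters in a window, and 9 of the 10 entries that hold or lack them had no AcNEIL1 peak within 1 kb.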

How the data were processed

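The members and gene lists were chosen with earlier results of these data known, and named genes are all 9 members, neighbours that hold their peaks, and pathway genes with an end peak in at least 2 replicates; HMGB1, OGG1, SMUG1 and NEIL1 were named outside that rule, after their values were seen. The authors deposited 1 peak table per ChIP library, called with MACS 2.1.1.20160309 against the input of the same number, without pooling, at a q-value of 0.05 and with at most 2 tags per position, per the file headers. The build is hg38, per the names of the deposited tables. Trim Galore, FastQC, cutadapt, Bowtie2, SAMtools and bedtools are in the submitters' processing notes, with versions not given in the sources used here. Libraries held 31921768, 28814429 and 35222701 ChIP tags and 32877739, 37772127 and 33606858 input tags. The deposited signal is the pileup at the summit, the larger of ChIP and input being scaled down to the smaller, which lowers heights in replicate 3. The deposited −log10 values are of the caller's p and q. The deposited fold is a ratio to the local background, which depends on each library's depth and background, so a mean over libraries describes the called peaks only; the background was recovered as (pileup + 1) / fold − 1. Nothing is listed outside peaks, and where a gene has none, none passed the threshold at this depth. The inputs' own values and the IgG control were not analysed here.

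Peaks on chromosomes 1 to 22 and X were overlapped (at least 1 bp) with RefSeq genes of GRCh38.p14, whose 679 scaffold entries were dropped. Each peak was placed in 1 class: ends, otherwise body, otherwise flank. Regions were made by chaining overlapping peaks of any replicate, so peaks of the same region need not all overlap each other. Density in extended bodies counted overlapping peaks, and surrounding density counted summits in 1 Mb centred on the gene, without its extended body. Strand came from the RefSeq promoter table, and exons were not used here. No test was run. The overlap code recovered all planted classes in made-up data (Python 3.11.15, pandas 2.3.3). Alternatives were stricter or equal numbers of peaks, summits, other windows and leaving out replicates.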

Additional observations from a re-analysis of the deposited data

How the results depend on the processing

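No paired analysis was possible because the inputs entered only as the caller's control and the ChIP libraries form 1 group. No member had an end or body peak in at least 2 replicates with stricter peaks, equal numbers of peaks, summits or a replicate left out. Each of these settings can only remove calls, so a count of 0 could not change and they are no check on it. End windows of 2000 bp and 5000 bp could raise the count for ends, and gave 3 members each (21.4% and 32.3% of all genes). They reach peaks farther out by construction, and no setting could raise the count for bodies. Members with a peak in the extended body, 6 as reported, numbered 2 at −log10 q of 5 or more, 3 with flanks of 10 kb and 3 to 5 with 1 replicate left out. At −log10 q of 5 or more the median distance was 67.7 kb in place of 17.9, and the density 1.15 in place of 3.33 peaks per 100 kb. The density was 2.32 with flanks of 10 kb and 5.45 with 50 kb. Of the 7 regions seen in all 3 replicates, a 50% reciprocal overlap left 1 peak of replicate 1 with a partner in both other lists. The causes of these shifts were not tested. Depth limits the reading to peaks past the caller's threshold. By the approximate limit of 3 in 9, a count of 0 of 9 genes allows a share of up to 33.3%.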
